A study of Mus musculus with 4 samples.

Results

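The 10 circadian clock genes Per1, Per2, Per3, Cry1, Cry2, Nr1d1, Nr1d2, Dbp, Tef and Clock were followed across 4 single-cell libraries of mouse kidney glomeruli, among 55488 genes in the deposited matrices. The members were listed by name, not by a cut on their levels, but with earlier results of these data known. Each had unique molecular identifiers (UMIs, single RNA molecules counted) in all 4 cell classes studied. The study profiled glomerular cells of wild-type mice (WT) and of Alport mice (AS), a model with the Col4a5 G5X change in a type IV collagen gene, at 5 weeks, before proteinuria or changes of the basement membrane and podocytes, and at 8 weeks, with mild proteinuria and abnormal basement membrane and podocytes. Each combination of genotype and age is 1 library, called WT 5w, AS 5w, WT 8w and AS 8w here, and values are always given in that order. The labels describe the tissue as embryonic, while the sample titles and the design text give weeks of age. The time of day at which the kidneys were taken is not in the labels, nor are the number of animals pooled in a library or their sex. The question was whether the clock genes differ between the 4 libraries by 1 pattern that all cell types share. With 1 library per group no test between groups was possible, so intervals cover counting error only, and genotype, age, time of sampling and library cannot be told apart.

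The circadian clock is a feedback loop that runs in nearly every cell. CLOCK pairs with ARNTL (BMAL1) and switches on genes that carry E-boxes, among them the Per and Cry genes, whose proteins return to block CLOCK and ARNTL. The same pair drives Nr1d1 and Nr1d2, which encode the REV-ERB receptors that repress Arntl, and Dbp, Tef and Hlf, which encode the PAR bZIP factors that act through D-boxes. In mouse tissues Nr1d1 and Dbp transcripts peak in the day, Per2 transcripts some hours later, and Arntl transcripts at the opposite side of the cycle, while Clock varies little. The kidney is among the strongly rhythmic organs, and glucocorticoid hormone, which itself varies over the day, induces Per1 directly.

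RefSeq stretches of 250 bases before a transcription start (build GRCm38.p6) were found for 9 of the 10 members. They were searched on both strands for the E-box CACGTG, the E-box variant CACGTT, the D-box TTATGNAA and the ROR element TAGGTCA, a site of the REV-ERB and ROR receptors. An E-box was present in 3 members, the variant in 3, a D-box in 2 and the ROR element in 0. Among all 32851 such stretches, 6.02% held the E-box, 3.85% the variant, 3.07% the D-box and 2.23% the ROR element. These shares are by stretch, while the member counts are by gene, over 13 stretches. The 5 stretches below are a choice among those with a match, and capitals mark the matched letters. Not shown are the variant matches of Cry2 and Nr1d1 and the E-box of the second Tef start. Per2 had no stretch, and the stretches of Dbp, Nr1d2 and Clock held none of these motifs.
Per1, chr11:69098699-69098948, plus strand, E-box first base 166 and D-box 24 bases before the start: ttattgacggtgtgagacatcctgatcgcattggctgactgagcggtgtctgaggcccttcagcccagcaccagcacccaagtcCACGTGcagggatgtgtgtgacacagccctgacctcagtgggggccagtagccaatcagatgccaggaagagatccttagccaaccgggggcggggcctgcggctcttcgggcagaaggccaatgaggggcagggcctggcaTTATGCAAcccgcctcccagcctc
Per3, chr4:151044666-151044915, minus strand, D-boxes 205 and 158 bases before the start: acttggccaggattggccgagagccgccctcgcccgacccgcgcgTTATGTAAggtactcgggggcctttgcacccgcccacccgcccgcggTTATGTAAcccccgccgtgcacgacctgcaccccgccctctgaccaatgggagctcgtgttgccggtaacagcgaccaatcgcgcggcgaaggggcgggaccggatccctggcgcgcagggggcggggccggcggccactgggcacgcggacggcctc
Cry1, chr10:85185055-85185304, minus strand, E-box 60 and variant 79 bases before the start: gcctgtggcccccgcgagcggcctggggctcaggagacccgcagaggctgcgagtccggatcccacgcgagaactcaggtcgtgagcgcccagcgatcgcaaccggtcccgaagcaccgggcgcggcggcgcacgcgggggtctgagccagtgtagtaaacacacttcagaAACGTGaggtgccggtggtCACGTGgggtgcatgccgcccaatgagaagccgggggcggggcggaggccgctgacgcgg
Tef, first of 2 starts, chr15:81802423-81802672, plus strand, E-box 127 bases before the start: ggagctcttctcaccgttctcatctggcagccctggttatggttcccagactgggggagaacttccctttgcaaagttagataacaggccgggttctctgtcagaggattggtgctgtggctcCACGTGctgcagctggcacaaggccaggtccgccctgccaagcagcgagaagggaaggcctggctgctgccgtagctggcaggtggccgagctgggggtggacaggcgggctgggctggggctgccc
Bhlhe41, a clock gene outside the 10 described further on, chr6:145865421-145865670, minus strand, E-box 153 bases before the start: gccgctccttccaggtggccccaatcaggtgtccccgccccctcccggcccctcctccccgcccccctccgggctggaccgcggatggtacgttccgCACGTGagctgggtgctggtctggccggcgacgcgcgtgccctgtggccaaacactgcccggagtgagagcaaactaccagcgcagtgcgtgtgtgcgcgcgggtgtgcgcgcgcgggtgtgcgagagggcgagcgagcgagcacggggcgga
Both D-boxes of Per3 had the same 8 letters, and the D-box of Per1 differed from them at the free base. A match is a stretch of letters and was not tested as a binding site.

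The libraries held 6604, 7544, 7489 and 7963 barcodes with 74356581 to 126118422 UMIs, and 5556 to 6832 cells per library were kept, with medians of 8536 to 10902.5 UMIs. Library pairs shared 13 to 18 barcodes. Cells were clustered without the clock genes and named by markers as podocyte-like (1614, 1496, 2732 and 2415 cells), glomerular endothelial-like (2429, 3181, 580 and 2377), mesangial-like (715, 927, 267 and 1290) and smooth muscle-like (47, 129, 193 and 58). In every library each class had all 8 of its own markers at 20 CPM or more (CPM: UMIs of a gene per 1000000 UMIs of the class in a library). The smooth muscle-like class also carried renin cell markers at 8108 to 9716 CPM summed. In each library 3 of the 4 markers of that list stood at 20 CPM or more in it. Whether this class holds renin-producing cells was not tested. A separate renin cell-like class held 21, 13, 63 and 18 cells. The WT 8w library stood apart: 28.6% of its cells stayed unnamed, against 4.09% to 7.36% elsewhere, and 382 of them formed a cluster with endothelial markers led by Kap, a tubule gene. The largest cluster of the podocyte-, endothelial- and mesangial-like classes differed between libraries, so a difference between libraries within those classes is also one between clusters. Of the endothelial-like cells, the cluster led by Adamts16 held 1262 of 2429 in WT 5w and 1412 of 3181 in AS 5w, that led by Gm14226 240 of 580 in WT 8w and that led by Dlk1 1279 of 2377 in AS 8w. In mesangial-like cells the summed renin markers were 1479 CPM in WT 8w and 185 to 222 CPM in the others. Podocyte markers in endothelial-like cells, which mark free RNA, stood at 11.9% to 15.2% of their level in the whole library, and at 3.90% to 6.22% in mesangial-like and smooth muscle-like cells. Endothelial markers in podocyte-like cells stood at 19.99% to 46.2%, highest in WT 8w, and some of them may be expressed by podocytes. The summed level of these markers in podocyte-like cells was 1864, 1553, 2029 and 1517 CPM. Their whole-library level also depends on the share of endothelial-like cells, which was 43.7%, 49.3%, 9.45% and 34.8%.

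The Per genes encode the PERIOD repressors. Per2 (chr1:91415982-91459324) had 11.5, 8.96, 21.2 and 13.7 CPM in podocyte-like cells and 16.9, 11.8, 39.9 and 24.4 CPM in endothelial-like cells. It had 38.3, 29.8, 66.3 and 48.5 CPM in mesangial-like cells and 17.4, 4.601, 23.9 and 20.9 CPM in smooth muscle-like cells. In all 4 classes the WT 8w library was highest, AS 5w lowest, and both 8w libraries lay above both 5w libraries. Per2 was higher in WT 8w than in WT 5w by a log2 ratio of 1.03 in endothelial-like cells (95% interval 0.79 to 1.27), 0.72 in mesangial-like cells (0.49 to 0.95) and 0.67 in podocyte-like cells (0.53 to 0.81). Ratios are of CPM plus a pseudocount of 5 CPM, which understates changes of low genes, and intervals are exact conditional binomial. The smooth muscle-like values rest on 7 to 63 UMIs, and the interval of their WT ratio, 0.37 (-0.34 to 1.09), includes 0. The mesangial-like ratio of Per2 fell within 1.5-fold at a coarser clustering of Leiden resolution 0.5 (0.46), with called doublets kept (0.56) and with classes from each cell's own markers (0.56), and the podocyte-like one with free RNA subtracted (0.56). Mesangial-like cells had the highest Per2 level of the 4 classes in 4 of 4 libraries.

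Per3 (chr4:151003652-151044665, overlapped by Camta1 on the same strand) carries the pair of D-boxes shown above. It stood at 38.8, 29.2, 68.0 and 48.1 CPM in podocyte-like cells and 60.5, 41.9, 74.1 and 62.7 in endothelial-like cells. In mesangial-like cells its levels were 74.5, 67.5, 119 and 86.5 CPM. Smooth muscle-like cells had 12.03, 11.8, 30.4 and 31.4 CPM. Again both 8w libraries exceeded both 5w libraries in 4 of 4 classes, with WT 8w highest in every class but the smooth muscle-like one, where the intervals of WT 8w (24.1 to 37.8) and AS 8w (19.4 to 48.0) overlapped. On the log2 scale WT 8w exceeded WT 5w by 0.74 in podocyte-like (0.64 to 0.83), 0.64 in mesangial-like (0.46 to 0.82) and 1.05 in smooth muscle-like cells (0.28 to 1.81). The mesangial-like ratio fell within 1.5-fold in the 2 largest clusters of that class alone (0.39), at a coarser clustering (0.44), with called doublets kept (0.48), in cells with lower immediate-early shares (0.50) and with classes from each cell's own markers (0.54). Mesangial-like cells were the highest and smooth muscle-like cells the lowest class for Per3 in every library.

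Per1 (chr11:69095217-69109960), which answers quickly to hormones and other stimuli, varied less than Per2 in every class. It also varied less than Per3 except in endothelial-like cells. There its highest library exceeded its lowest 1.97-fold, against 1.77-fold for Per3. It had 46.0, 35.3, 62.5 and 40.2 CPM in podocyte-like cells and 35.1, 26.3, 51.9 and 42.5 CPM in endothelial-like cells. Mesangial-like cells had 43.7, 40.4, 52.8 and 42.4 CPM, and smooth muscle-like cells 26.7, 36.8, 39.1 and 38.8 CPM. WT 8w was the highest library in all 4 classes, though in smooth muscle-like cells by less than counting error, while the lowest was AS 5w in 3 classes and WT 5w in smooth muscle-like cells, on 20 UMIs. In podocyte-like cells both WT libraries lay above both AS libraries for Per1, an order that 33.7% of all genes had in that class. The order of the 4 classes was not the same in every library: in WT 5w podocyte-like cells (43.5 to 48.7) lay above endothelial-like (32.5 to 37.9) and smooth muscle-like cells (16.3 to 41.3), in AS 5w mesangial-like cells (37.6 to 43.4) lay above endothelial-like cells (24.3 to 28.5), and in AS 8w the intervals of all 4 classes overlapped.

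**Figure D1:**
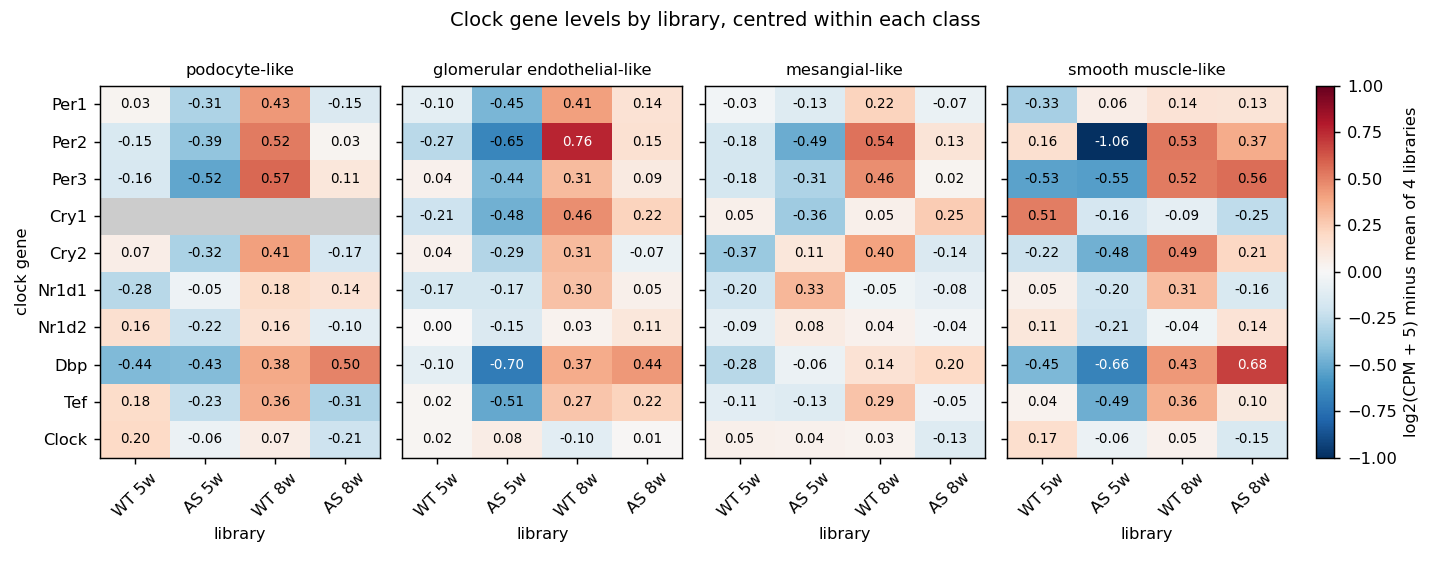
Clock gene levels in the 4 libraries (columns) for the 10 members (rows) in each cell class (panels), as log2(CPM + 5) minus the mean of the 4 libraries in that class; grey marks Cry1 in podocyte-like cells, below the level floor. The Per genes, Cry2, Dbp and Tef are mostly blue in AS 5w and red in WT 8w in every class, Dbp is also red in AS 8w, and Clock stays near white.

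The cryptochromes CRY1 and CRY2 act with the PERIOD proteins as repressors. Cry1 (chr10:85131700-85185064), with the E-box pair shown above, was low: 7.09, 4.31, 5.31 and 5.97 CPM in podocyte-like cells, below the floor of a mean of 10 CPM and 60 UMIs set for a gene in a class. In endothelial-like cells it had 13.6, 10.4, 24.6 and 20.1 CPM, with both 8w libraries above both 5w libraries and a WT 8w to WT 5w ratio of 0.67 (0.40 to 0.95), which was 0.58 at a coarser clustering and 0.56 with classes from each cell's own markers. In mesangial-like cells, at 20.5, 14.1, 20.4 and 24.2 CPM, the 2 WT libraries did not differ beyond counting error. Smooth muscle-like cells went the other way, with 18.7, 9.86, 10.6 and 8.96 CPM and a WT 8w to WT 5w ratio of -0.60, on 14 and 28 UMIs and with an interval of -1.33 to 0.16. Cry1 thus had no common order of libraries across classes.

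Cry2 (chr2:92403646-92434043, overlapped by D930015M05Rik on the other strand) had 34.5, 25.2, 45.1 and 28.6 CPM in podocyte-like cells and 25.9, 19.5, 32.2 and 23.7 CPM in endothelial-like cells. In both classes the 2 WT libraries lay above the 2 AS libraries. Mesangial-like cells, at 27.7, 40.6, 50.9 and 33.3 CPM, had AS above WT at 5 weeks and below it at 8 weeks. Smooth muscle-like cells had 12.03, 9.20, 22.8 and 17.9 CPM, on 9 to 60 UMIs. WT 8w was the highest library for Cry2 in all 4 classes, past 1.5-fold over WT 5w in mesangial-like cells, at 0.77 (0.51 to 1.03), and in smooth muscle-like cells, at 0.71 (-0.08 to 1.47). The mesangial-like ratio fell within 1.5-fold with called doublets kept (0.42), at a coarser clustering (0.48) and in the 2 largest mesangial-like clusters alone (0.56), and the smooth muscle-like one with classes from each cell's own markers (0.19).

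Nr1d1 (chr11:98767932-98775333, minus strand) and Nr1d2 (chr14:18204054-18239127) encode REV-ERB alpha and beta, heme-binding receptors that repress Arntl. Nr1d1 had 89.4, 106, 125 and 121 CPM in podocyte-like cells, 138, 138, 193 and 162 in endothelial-like cells, and 62.8, 51.9, 75.9 and 53.8 in smooth muscle-like cells. WT 8w was highest in these 3 classes, but in mesangial-like cells, at 98.5, 145, 110 and 107 CPM, AS 5w was highest, with an AS to WT ratio at 5 weeks of 0.53 (0.44 to 0.62). Nr1d1 lies over Thra on the opposite strand, and the sources used here do not give the strand setting of the counting. Thra had 76.2 to 183 CPM, and in mesangial-like cells, at 151, 161, 135 and 117 CPM, AS 5w was its highest library too. In podocyte-, endothelial- and smooth muscle-like cells Thra was highest in WT 5w, AS 5w and WT 5w, and Nr1d1 in WT 8w. Whether reads of Thra enter the Nr1d1 value was not tested. Nr1d2 had narrow ranges of 78.5 to 104, 103 to 125, 149 to 169 and 83.5 to 108 CPM in podocyte-, endothelial-, mesangial- and smooth muscle-like cells, and in no class were 2 libraries 1.5-fold apart.

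Dbp and Tef encode PAR bZIP factors, direct outputs of CLOCK and ARNTL that pass the rhythm on to metabolic genes. Dbp (chr7:45705088-45710203) had 162, 163, 291 and 315 CPM in podocyte-like cells, 170, 110.0, 237 and 248 in endothelial-like cells, 227, 264, 305 and 317 in mesangial-like cells, and 81.5, 69.7, 155 and 185 in smooth muscle-like cells. Both 8w libraries exceeded both 5w libraries in 4 of 4 classes, and unlike the Per genes, Dbp was highest in AS 8w in each of them. The AS 8w to AS 5w ratio was 0.93 in podocyte-like cells (0.89 to 0.97), 1.14 in endothelial-like cells (1.07 to 1.20), 0.26 in mesangial-like cells (0.21 to 0.31) and 1.35 in smooth muscle-like cells (0.98 to 1.72). The excess of AS 8w over WT 8w was small, from 0.05 to 0.25, and its interval excluded 0 in podocyte-like cells, at 0.11 (0.08 to 0.15). Sphk2, which overlaps Dbp on the other strand, stood at only 7.47 to 22.7 CPM in any class and library. Dbp was highest in mesangial-like and lowest in smooth muscle-like cells in every library, though in AS 8w the mesangial-like (309 to 325) and podocyte-like (311 to 320) intervals overlapped.

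Tef (chr15:81802421-81826863) had 121, 89.8, 138 and 85.2 CPM in podocyte-like cells and 101, 68.4, 122 and 117 in endothelial-like cells. The mesangial-like class held 144, 142, 192 and 151 CPM. Smooth muscle-like cells had 60.1, 40.1, 76.3 and 62.7 CPM. WT 8w was again highest in all 4 classes. Podocyte-like cells differed from the rest in AS 8w, which was their lowest library: the AS to WT ratio at 8 weeks was -0.67 there (-0.72 to -0.62) and -0.05 in endothelial-like cells (-0.19 to 0.08), a difference between classes that was not tested.

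Clock (chr5:76209868-76304792) encodes the histone acetyltransferase partner of ARNTL. It had 117, 97.0, 107 and 86.8 CPM in podocyte-like cells, 144, 151, 133 and 144 in endothelial-like cells, 107, 106, 105 and 93.3 in mesangial-like cells, and 111, 94.0, 102 and 88.1 in smooth muscle-like cells. The highest library exceeded the lowest by at most 1.34-fold in any class, less than for every other member in podocyte-like cells except Nr1d2, at 1.32-fold. Endothelial-like cells had the highest Clock level in 4 of 4 libraries.

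**Figure D2:**
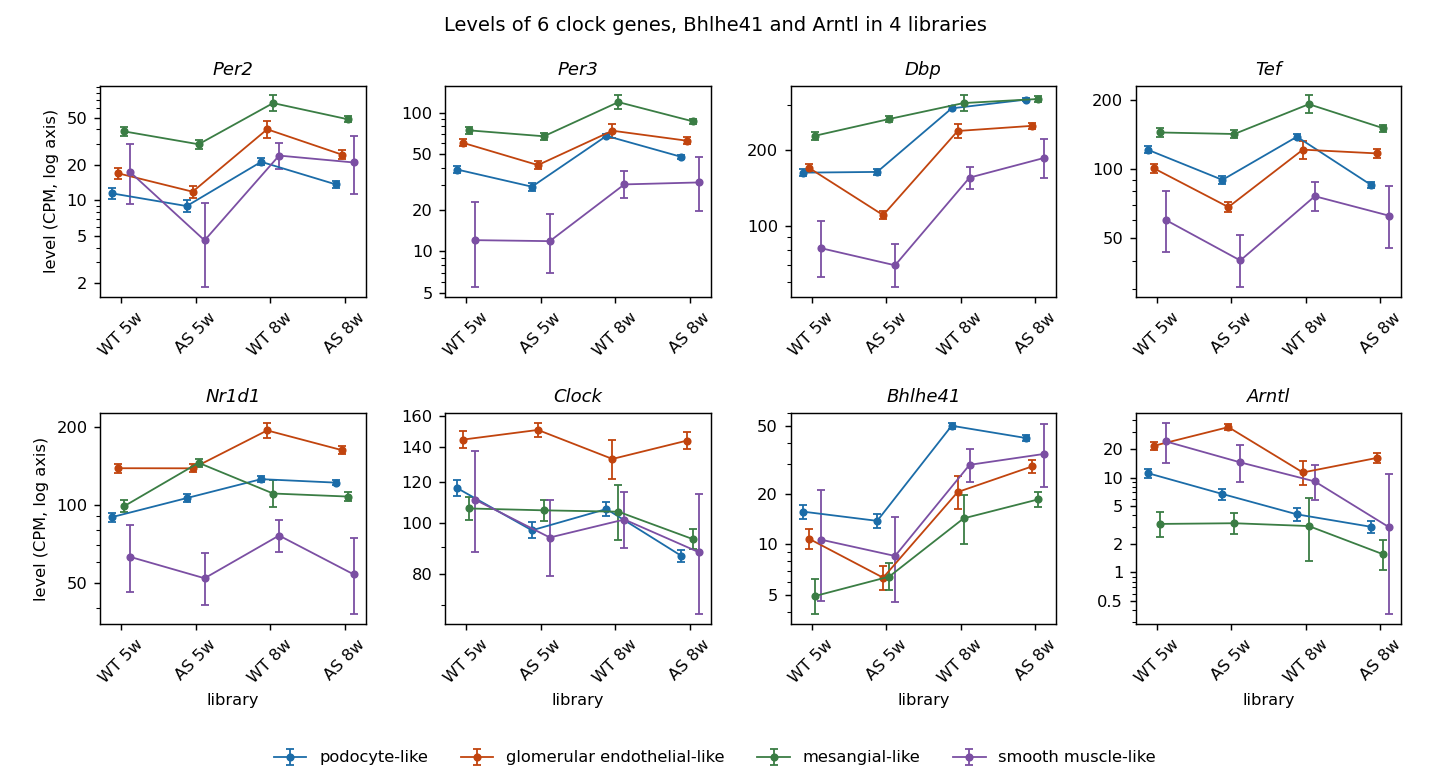
Levels of 6 members and of Bhlhe41 and Arntl in CPM on a log axis by library (x axis), with 1 colour per cell class and bars for the exact Poisson 95% interval of counting error; lines only join points of a class. Per2, Per3, Dbp and Bhlhe41 stand higher in the 8w than in the 5w libraries in every class, Clock is nearly level, and Arntl in endothelial-like cells runs from 34.0 CPM in AS 5w to 11.3 CPM in WT 8w.

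The genotype comparison at 5 weeks asked whether the clock genes differ before disease onset. Of the 39 pairs of a member and a class past the floor, 0 were higher and 3 lower in AS past 1.5-fold, against 4.29% of all gene and class pairs past 1.5-fold either way, 2.2% higher and 2.09% lower. The 3 were Dbp in endothelial-like cells, at -0.60 (-0.67 to -0.53), and in smooth muscle-like cells Per2, at -1.22 (-1.98 to -0.31), and Cry1, at -0.67 (-1.48 to 0.17). The medians of the members were -0.34, -0.35, -0.02 and -0.26 in podocyte-, endothelial-, mesangial- and smooth muscle-like cells, where the medians of all genes lay between -0.0043 and 0.03. Per2, Per3 and Tef were below WT in all 4 classes, as were 10.9% of all genes past the floor in 4 classes, and 0 members were above in all 4, where 20.8% of genes were. With WT 8w in place of WT 5w as the reference, 20 pairs were lower, so the size of the difference depends on which WT library is used. Without the smooth muscle-like cells 1 pair of 29 remained, Dbp in endothelial-like cells, which stood at -0.56 with classes from each cell's own markers, and Cry1 in smooth muscle-like cells stood at -0.52 with called doublets kept.

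At 8 weeks, with mild disease, 0 member and class pairs were higher and 2 lower in AS, against 6.28% of all pairs past 1.5-fold either way, 2.68% higher and 3.6% lower. These were Tef in podocyte-like cells, given above, and Per2 in endothelial-like cells, at -0.61 (-0.84 to -0.38). Per1, Per2, Cry2, Nr1d1 and Tef were below WT in all 4 classes, as were 12.2% of genes, and Dbp above in all 4, as were 13.2%. Member medians were -0.46, -0.23, -0.23 and -0.16, with medians of all genes from -0.05 to 0.01. With WT 5w as the reference the direction turned: 3 pairs were higher and 1 lower, and Per2 in endothelial-like cells stood at 0.42. Joining the Kap-led endothelial cluster of WT 8w to its class brought that Per2 ratio to -0.56, within 1.5-fold, and left 1 pair. It was also within 1.5-fold at a coarser clustering (-0.54), in cells with lower immediate-early shares (-0.49) and with classes from each cell's own markers (-0.41). With free RNA subtracted 4 pairs were lower, and with a pseudocount of 1 CPM 6 were.

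Between the 2 WT libraries, 11 pairs were higher and 1 lower in WT 8w past 1.5-fold, against 7.46% of all pairs either way, 4.82% higher and 2.64% lower. Between the 2 AS libraries, 14 were higher and 0 lower in AS 8w, against 5.24% either way, 3.24% higher and 2% lower. In the WT libraries the 11 were Per2, Per3 and Dbp in podocyte-like cells, Per2 and Cry1 in endothelial-like cells, Per2, Per3 and Cry2 in mesangial-like cells, and Per3, Cry2 and Dbp in smooth muscle-like cells, and the lower pair was Cry1 in smooth muscle-like cells. Per1, Per2, Per3, Cry2, Nr1d1, Dbp and Tef were above WT 5w in all 4 classes, 7 of the 9 members past the floor in every class, where 30.6% of all genes were. In the AS libraries 4 of 9 were (Per1, Per2, Per3 and Dbp), where 23.2% of genes were. Clock was below in all 4 classes in both comparisons, as were 9.55% of genes between the WT and 12% between the AS libraries. Naming cells by their own markers alone gave 7 pairs higher and 0 lower in the WT libraries, and leaving out smooth muscle-like cells gave 9 higher in the AS libraries. Past 1.5-fold in every alternative setting that gave a value were 6 of the 12 pairs of the WT libraries (Per2 in endothelial-like, Dbp and Per3 in podocyte-like, and Dbp, Per3 and Cry1 in smooth muscle-like cells) and 9 of the 14 of the AS libraries. The comparisons share libraries: WT 5w serves the genotype comparison at 5 weeks and the WT comparison of ages, and the other libraries likewise serve 2 each.

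**Figure D3:**
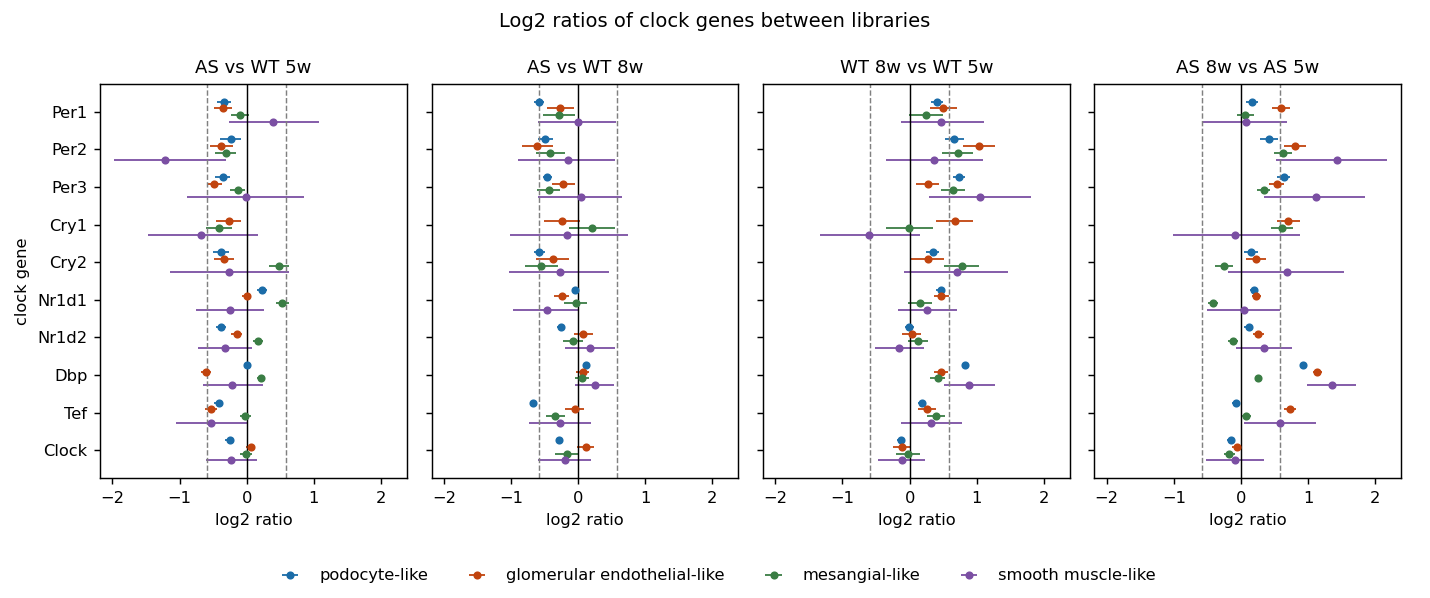
Log2 ratios between libraries (x axis) for the 10 members (rows) in 4 comparisons (panels), coloured by class, with the exact conditional binomial 95% interval of counting error; dashed lines mark 1.5-fold. In the panels of AS against WT most points lie left of 0 and few pass 1.5-fold, while in the panels of 8w against 5w most of Per2, Per3 and Dbp lie right of 0.

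The order of the 4 libraries was counted over the same pairs. Both 8w libraries exceeded both 5w libraries in 22 of 39 member and class pairs, where 28.1% of all pairs did, and both 5w libraries exceeded both 8w libraries in 2, where 15.2% did. WT 8w was highest in 23 pairs (30.3% of all pairs) and AS 5w lowest in 26 (20.1%). Both WT libraries exceeded both AS libraries in 10 (17.3%), 5 of them in podocyte-like cells, where 33.7% of all genes did. The reverse occurred in 0 member pairs and 16.9% of all pairs. The age order held in 19 pairs with median-of-ratios scaling and in 24 pairs with WT 8w left out, which then compares AS 8w with both 5w libraries.

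How far the classes share 1 pattern was measured as the part of the between-library variation of log2(CPM + 5), centred in each class, that lies in the mean over the 4 classes. Classes that vary independently would give 25% on average. For the 9 members past the floor in all classes the share was 77.4%, with a counting SD of 2.76, and counting error made up 9.39% of their variation. For all 6997 genes past the floor in 4 classes the pooled share was 54.05%, so common variation between these libraries was not particular to the clock genes. The median share by gene was 44.3% for all genes and 69.0% for the members. Counting error was not computed for all genes, which limits the comparison. By gene the share was 87.3% for Per2, 83.2% for Dbp, 82.8% for Per3, 74.0% for Tef, 69.0% for Cry2, 62.2% for Per1, 56.4% for Clock, 38.1% for Nr1d1 and 33.7% for Nr1d2. It was 50% or more for 7 of the 9, against 41.9% of all genes. Per2 exceeded 96.8% of all genes and Nr1d2 34.1%. Without the WT 8w library the members' share was 64.9%, and without each of the others it was 77.2% to 81.6%. In cells with an immediate-early share at or below the median of their class and library it was 68.8%, over 7 genes.

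The common pattern was not the same for every gene. The mean over the 4 classes of the centred log2 level of Per2 was -0.11, -0.65, 0.59 and 0.17, with SDs between classes of 0.19, 0.29, 0.12 and 0.14. Per3 had -0.21, -0.46, 0.47 and 0.20, and Per1 and Cry2 had the same order, WT 8w above AS 8w above WT 5w above AS 5w. Dbp differed in having AS 8w on top, with -0.32, -0.47, 0.33 and 0.45. Tef had -0.34 in AS 5w and 0.32 in WT 8w, but 0.03 in WT 5w and -0.01 in AS 8w. For Clock the values ran only from -0.12 to 0.11. Nr1d1 had -0.15, -0.02, 0.19 and -0.01. The members thus had no single order of libraries in common, and what the Per genes, Cry2 and Tef shared was WT 8w as the highest library and AS 5w as the lowest.

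Across member and library points, the centred levels of 2 classes had Pearson r from 0.60 for mesangial- and smooth muscle-like cells (40 points) to 0.81 for podocyte- and endothelial-like cells (36 points), against 0.25 to 0.58 over all genes. These points share their libraries, their depth and their free RNA, and the members are not independent of each other.

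Within the glomerular endothelial-like class the pattern was compared between 4 clusters found in every library, led by Trpm3, Dlk1, Adamts16 and Gm14226. Dbp had 109, 71.4, 174 and 170 CPM in the Trpm3 cluster and 162, 134, 266 and 275 CPM in the Dlk1 cluster. The Adamts16 cluster had 188, 112, 264 and 231 CPM and the Gm14226 cluster, which also carries the tip cell gene Esm1, 174, 112, 250.02 and 273 CPM. Each cluster was lowest in AS 5w, and in each both 8w libraries exceeded both 5w libraries. Per1, Per2, Per3, Cry1, Cry2, Nr1d1, Dbp and Tef were higher at 8 than at 5 weeks in 4 of 4 clusters in both genotypes, as were 9.94% of all genes past the floor in this class. At 5 weeks Per1, Per2, Per3, Cry1, Cry2, Nr1d2, Dbp and Tef were lower in AS in 4 of 4, as were 11.8% of genes, with Tef from -0.61 to -0.22. The Trpm3 cluster had the lowest Per2 and the smallest range, 5.42 to 14.1 CPM, while the Adamts16 cluster ran from 12.2 to 66.6 CPM.

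**Figure D4:**
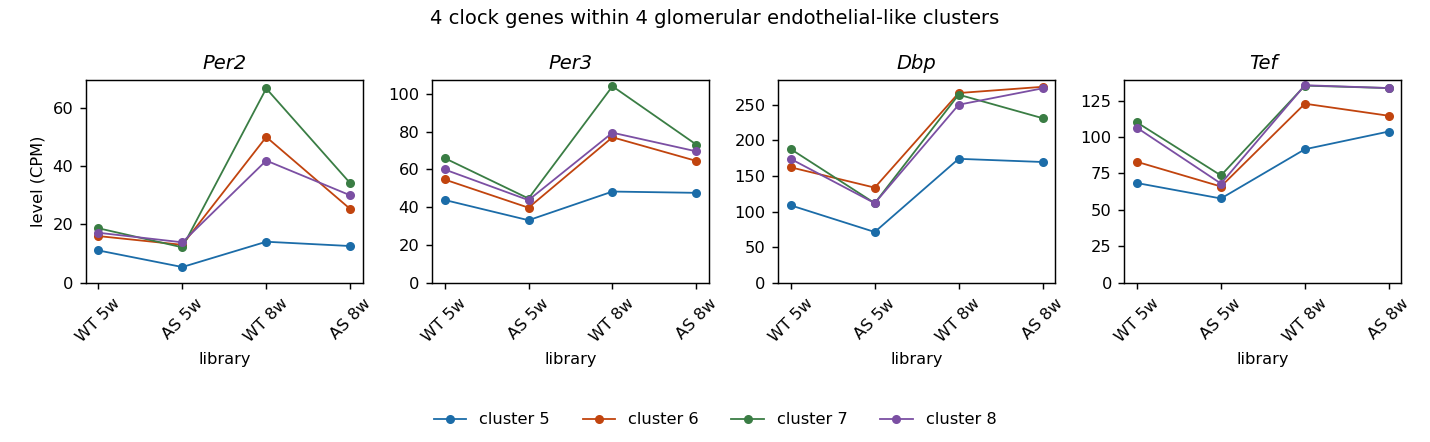
Levels of Per2, Per3, Dbp and Tef in CPM (y axis from 0) by library (x axis) in 4 glomerular endothelial-like clusters (colours; cluster 5 is led by Trpm3, 6 by Dlk1, 7 by Adamts16 and 8 by Gm14226). AS 5w is the lowest point of every line; lines only join the points of a cluster.

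Podocyte-like cells of the AS libraries fell into clusters that could be compared within a library. In AS 8w, Dbp had 386 CPM (373 to 400) in the cluster led by Cdkn1c, 326 (318 to 333) in that led by Igfbp2 and 287 (280 to 293) in that led by Rbfox1, in 509, 637 and 1149 cells. Per2 was instead highest in the Rbfox1 cluster, with 11.8 (9.58 to 14.4), 11.3 (9.94 to 12.7) and 16.0 (14.6 to 17.5) CPM, and Tef had 93.8, 66.1 and 96.6 CPM. In AS 5w, Dbp had 175 CPM in the Cdkn1c cluster and 136 CPM in the Rbfox1 cluster, so within each of these clusters the AS 8w value lay well above the AS 5w value. The differences between clusters of AS 8w lie within 1 library.

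Other cells of the preparation gave further readings outside the 4 classes. In parietal epithelial-like cells Dbp had 209, 209, 295 and 304 CPM, Per3 63.3, 43.1, 115 and 76.4 CPM and Per2 12.7, 10.2, 37.8 and 21.4 CPM. In arterial endothelial-like cells Dbp had 127, 132, 201 and 221 CPM, Per3 46.8, 43.5, 65.3 and 63.8 CPM and Per2 13.01, 5.12, 20.3 and 19.2 CPM. Both therefore had the 8w libraries above the 5w libraries for these 3 genes. The smaller classes, of 11 to 94 cells a library, were mixed. In B-like cells Dbp had 43.4, 36.9, 122 and 115 CPM, but Per3 had 20.7, 6.41, 70.4 and 14.0 CPM and Per2 10.3, 3.21, 14.1 and 0 CPM, with AS 8w below WT 5w for both, on at most 15 UMIs. Per3 also broke the order in myeloid-like cells, with 19.4, 17.3, 13.2 and 23.02 CPM, and in renin cell-like cells, with 54.9, 15.4, 53.1 and 47.1 CPM. Over the 3 genes and 6 further classes, which include T and NK-like cells, both 8w libraries lay above both 5w libraries in 14 of 18 pairs, many of them on few UMIs. Dbp in B-like cells was below its level in podocyte-, endothelial- and mesangial-like cells of the same library, and free RNA reaches all cells of a library.

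Of 20 other clock genes, 46 gene and class pairs passed the floor. In AS against WT, 0 were higher and 1 lower at 5 weeks, and 1 higher and 4 lower at 8 weeks. In WT 8w against WT 5w, 6 were higher and 2 lower, and in AS 8w against AS 5w 7 and 3, to be read against the percentages given above. Bhlhe41 (DEC2), a repressor driven by CLOCK and ARNTL with the E-box shown above, had 15.7, 13.8, 50.4 and 42.6 CPM in podocyte-like cells and 10.8, 6.36, 20.4 and 29.0 CPM in endothelial-like cells. It was higher in WT 8w than WT 5w in 4 of 4 classes, by 0.68 to 1.42. Arntl, the partner of CLOCK that REV-ERB represses, went the other way, with 21.6, 34.0, 11.3 and 16.2 CPM in endothelial-like cells and 24.1, 14.5, 9.11 and 2.99 CPM in smooth muscle-like cells. These were the only classes where Arntl passed the floor, and it was lower in WT 8w than WT 5w by -0.71 (-1.02 to -0.38) and -1.04 (-1.73 to -0.32). In endothelial-like cells its order, AS 5w, WT 5w, AS 8w and WT 8w from high to low, is the reverse of that of Per2. This did not hold in smooth muscle-like cells. There Arntl was highest in WT 5w and lowest in AS 8w, on 2 UMIs in AS 8w, while Per2 was lowest in AS 5w and highest in WT 8w. Hlf, the third PAR bZIP gene, had 12.8, 3.74, 19.0 and 9.61 CPM in podocyte-like cells and 10.5, 7.39, 26.6 and 19.9 CPM in endothelial-like cells. Its levels were higher in mesangial-like cells, at 147, 141, 194 and 173 CPM. Smooth muscle-like cells had 89.5, 59.2, 89.2 and 73.2 CPM of Hlf, with WT 8w not above WT 5w.

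Likeness to the members was measured among genes that ranged over at least 1 log2 unit between libraries in podocyte-, endothelial- and mesangial-like cells, 33 in all, as Pearson r over 12 library and class points with the mean profile of Dbp, Tef, Per3, Nr1d1 and Nr1d2. Bhlhe41 was the most alike, with r of 0.87, and Atp5l at 0.78 and Gstp1 at 0.71 were among the next. The least alike were H1f4 at -0.78, Cdk8 at -0.77 and Cmss1 at -0.73. Cmss1 had 2567, 1338, 281 and 151 CPM in podocyte-like cells, and Cdk8 605, 354, 94.5 and 67.7 CPM. Genes outside the clock thus also separated the 5w from the 8w libraries, where age and library cannot be told apart. The points share their libraries and depth. Of the members outside that mean profile, Per1 had r of 0.90, Per2 0.88, Cry2 0.79 and Clock -0.21. The 5 members that form the profile had r from 0.61 for Nr1d1 to 0.92 for Per3, each with a mean that contains it.

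Other measures moved with the libraries too, and their part in the clock gene differences was not tested. Of a list of 10 glucocorticoid response genes, 26 gene and class pairs passed the floor, and 18 of them were highest in WT 8w, where 30.3% of all pairs were. The summed list was highest in WT 8w in podocyte- and mesangial-like cells, in AS 8w in endothelial-like cells and in AS 5w in smooth muscle-like cells. As examples chosen after their values were seen, Fkbp5 had 8.16, 6.84, 54.3 and 8.31 CPM and Tsc22d3 89.8, 61.5, 207 and 106 CPM in podocyte-like cells. Zbtb16 had 58.5, 44.2, 314 and 86.7 CPM in the endothelial-like class, and the mesangial-like class had 47.3, 44.3, 206 and 76.1 CPM of it. Each was highest in WT 8w in the class given. Sgk1, of the same list, was instead highest in AS 8w in endothelial-like cells, at 1223, 1321, 1229 and 1726 CPM. The same held in mesangial-like cells, at 315, 277, 348 and 390 CPM of Sgk1. The summed level of 14 immediate-early genes was 1090, 1195, 1276 and 1353 CPM in podocyte-like cells and 942, 1070, 1089 and 1275 CPM in endothelial-like cells, lowest in WT 5w and highest in AS 8w. WT 8w was instead highest in mesangial-like cells, at 622, 645, 826 and 794 CPM, and in smooth muscle-like cells, at 3619, 3951, 4107 and 3685 CPM. The cold-inducible Rbm3 had 163, 257, 187 and 206 CPM in podocyte-like cells, with AS 5w highest and WT 5w lowest. It had 129, 174, 168 and 109 CPM in endothelial-like cells and 160, 203, 232 and 148 CPM in mesangial-like cells. Smooth muscle-like cells had 241, 268, 235 and 181 CPM of Rbm3. AS 8w was lowest in these other classes, and WT 8w was highest in the mesangial-like one. Kap stood at 52.5 to 95.5 CPM in the podocyte-, endothelial- and mesangial-like cells of WT 8w and at 1.03 CPM or less in the other libraries, and the 6 proximal tubule markers summed to 1.18, 3.10, 13.6 and 2.67 CPM in podocyte-like cells.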

How the data were processed

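The authors deposited raw UMI counts per gene and barcode as 10x matrices, 1 per library, which per the file headers were written by Cell Ranger 9.0.0, from Chromium 3' libraries of kit version 2 per the labels. GRCm38 (mm10), STAR 2.7.2a and bcl2fastq 2.20.0 are named in the submitters' processing notes. The strand setting is not given in the sources used here. Of 55488 gene IDs, 55227 matched GENCODE M21.

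A cell needed 500 genes, 1000 UMIs and a mitochondrial share of 20% or less, and Scrublet calls (2.40% to 6.32% of cells) were left out. Cells were clustered in scanpy 1.11.5 without the clock genes (2000 variable genes, 30 components, 15 neighbours, Leiden resolution 1, and 0.5 for mesangial, smooth muscle and renin cells). A cluster was named from at least 3 detected markers with a lead of 1 log2 unit. A cluster with 2 or more proliferation genes among its leading genes stayed unnamed, a rule set after the clusters were seen. The counts of all cells of a class in a library were added up and scaled to CPM. A gene counted in a class with a mean of 10 CPM and 60 UMIs in all. The ratio and interval code was tested on simulated data. The named genes were all members, other clock genes past 1.5-fold in 1 direction in at least 2 classes of 1 comparison, and those most and least like the members, of which 1 is not reported here; other genes were named for context after their values were seen. The members and lists were chosen with earlier results of these data known. Intervals and floors cover counting error only.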

Additional observations from a re-analysis of the deposited data

Results flagged for a closer look

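In mesangial-like cells the genotypes differed in opposite directions at the 2 ages for Cry2, a repressor of the clock loop. The log2 ratio of AS to WT was 0.48 at 5 weeks (0.33 to 0.64) and -0.55 at 8 weeks (-0.79 to -0.29), from 27.7, 40.6, 50.9 and 33.3 CPM in WT 5w, AS 5w, WT 8w and AS 8w. With 1 library per group the difference between the ages was not tested. Different clusters held most mesangial-like cells at the 2 ages, and their part in the result was not tested.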

How the results depend on the processing

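The settings changed were the pseudocount, scaling, level floor, doublets, cluster resolution, class naming, free RNA, immediate-early cells and cell classes, plus, chosen after seeing the data, single libraries left out, the 2 largest mesangial-like clusters alone and the Kap-led cluster joined to the endothelial-like class. Of the member and class pairs past 1.5-fold, those lower or higher in AS 8w than WT 8w numbered 2, but 6 with a pseudocount of 1 CPM, 4 with free RNA subtracted, 1 with the Kap-led cluster joined and 4 with WT 5w as the reference, where Per2 in endothelial-like cells reversed to 0.42. At 5 weeks the count of 3 became 1 without smooth muscle-like cells and 20 with WT 8w as the reference. The count of 12 between WT libraries became 7 with classes from each cell's markers, and the 14 between AS libraries became 9 without smooth muscle-like cells. The shared part of the variation, 77.4%, was 68.8% in cells with lower immediate-early shares and 64.9% to 81.6% with 1 library left out. The 22 pairs with both 8w libraries above both 5w libraries became 24 to 30 with 1 library left out, and 16 (of 29) to 23 under the other settings. Of 31 ratios past 1.5-fold, 25 stayed past it with doublets kept, 25 at Leiden resolution 0.5, 22 of 29 with classes from each cell's markers and 23 of 25 in cells with lower immediate-early shares. Past 1.5-fold in every setting that gave a value were 1 of 3 pairs at 5 weeks, 0 of 2 at 8 weeks, 6 of 12 between WT and 9 of 14 between AS libraries. The cause of these changes was not tested. Smooth muscle-like values rest on 47 to 193 cells and are limited by depth. No paired analysis was possible because each group has 1 library.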
